A study of Mus musculus with 9 samples.

Results

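The genes described here are 10 genes of the defence against oxidative and metal stress, followed in differentiated MC3T3-E1 cells that were given an organic or an inorganic phosphate. They were chosen by symbol from the count table of 55416 genes, as known targets of the transcription factor NRF2 (Hmox1, Nqo1, Gclc, Gclm, Srxn1, Txnrd1 and Slc7a11), the gene of NRF2 itself (Nfe2l2) and a pair of metallothioneins (Mt1 and Mt2), because phosphate load can cause oxidative stress. All 10 had a row, and 9 of them passed a filter on low counts that kept 13679 genes. MC3T3-E1 is a clonal pre-osteoblast line from mouse calvaria, labelled wild type, and every culture was differentiated in a medium that held dexamethasone, β-glycerophosphate (BGP) and ascorbic acid, although the study's methods give BGP for the earlier part of the differentiation only. At day 27 the cells received 4 mM BGP as organic phosphate, 4 mM of a Na2HPO4/NaH2PO4 mixture (NaHPO4) as inorganic phosphate, or neither (Control), and RNA was taken after 16 hours. Each group had 3 libraries, sequenced as stranded polyA RNA. The sources do not say that these came from separate cultures, so every p-value measures the spread between these libraries, which may be technical. The Control cells shared the differentiation medium with the treated cells, and the comparisons of each phosphate with Control use the same 3 Control libraries.

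NRF2 is held in the cytoplasm by KEAP1, which passes it to a CUL3 ubiquitin ligase for degradation. Oxidants and electrophiles modify KEAP1, NRF2 accumulates, pairs with a small MAF protein and binds antioxidant response elements in front of genes for glutathione synthesis, thioredoxin and quinone metabolism and heme breakdown, while BACH1 represses some of the same elements. Metallothioneins are small cysteine-rich proteins that bind zinc and copper and scavenge radicals. Their genes are switched on by the zinc sensor MTF1 through metal response elements, and also by glucocorticoids.

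The sequences in front of the members are shown for the 3 members with a window whose level passed the test against Control and for the gene of NRF2. The windows are the 250 bases upstream of an annotated start in a RefSeq promoter table on GRCm38.p6, which held 8 of the 10 members and had no entry for Hmox1 and Gclc. They are written 5′ to 3′ in the direction of the gene, and capitals mark matches on either strand to the core of the antioxidant response element (TGACNNNGC) or of the metal response element (TGCACNC or TGCGCNC). The window of Mt2 is chr8:94172368-94172617 (plus strand), that of Mt1 chr8:94178839-94179088 (plus strand), that of the second annotated start of Txnrd1 chr10:82858956-82859205 (plus strand) and that of Nfe2l2 chr2:75704664-75704913 (minus strand).
Mt2: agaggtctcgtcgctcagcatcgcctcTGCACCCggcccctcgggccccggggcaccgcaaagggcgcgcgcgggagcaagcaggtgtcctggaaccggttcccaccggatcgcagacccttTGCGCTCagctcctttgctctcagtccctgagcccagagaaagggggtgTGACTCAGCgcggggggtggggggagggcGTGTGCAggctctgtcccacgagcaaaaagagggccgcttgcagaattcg
Mt1: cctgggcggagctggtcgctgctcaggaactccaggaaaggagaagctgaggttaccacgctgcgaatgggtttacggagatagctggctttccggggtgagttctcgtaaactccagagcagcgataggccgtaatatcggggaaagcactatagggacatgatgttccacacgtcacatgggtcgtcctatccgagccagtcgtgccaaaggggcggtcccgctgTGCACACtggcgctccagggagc
Txnrd1: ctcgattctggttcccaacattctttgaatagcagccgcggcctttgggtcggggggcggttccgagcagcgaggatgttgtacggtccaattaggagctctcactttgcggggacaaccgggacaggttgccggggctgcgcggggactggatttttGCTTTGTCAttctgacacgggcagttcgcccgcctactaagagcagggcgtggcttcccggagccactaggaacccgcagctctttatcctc
Nfe2l2: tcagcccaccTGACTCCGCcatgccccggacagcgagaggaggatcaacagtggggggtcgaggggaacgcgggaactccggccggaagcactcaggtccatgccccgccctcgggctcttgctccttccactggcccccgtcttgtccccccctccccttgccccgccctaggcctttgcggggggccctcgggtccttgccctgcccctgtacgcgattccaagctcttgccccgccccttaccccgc

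The window of Mt2 held 3 metal response element cores, at 223 to 217, 128 to 122 and 50 to 44 bases before the start, and 1 antioxidant response element core at 79 to 71 bases, whose first letters also spell the AP-1 site TGACTCA. The window of Mt1 held 1 metal response element core, at 23 to 17 bases, and no antioxidant response element core. Mt1 and Mt2 have 4 and 10 annotated transcripts but 1 window each. The matches cover these windows alone and do not compare the promoters of the genes. Which annotated start the cells use was not tested, and cores in front of another start lie outside these counts. The second start of Txnrd1 had an antioxidant response element core on the reverse strand at 92 to 84 bases, and the windows of its other 2 starts had none. Nfe2l2 had 1 at 240 to 232 bases. Of the members not printed, Gclm held 1 antioxidant and 2 metal response element cores, with an antioxidant and a metal core sharing letters, Srxn1 held 1 metal response element core and 2 AP-1 sites, and Nqo1 and Slc7a11 held none of these letters. Among all 32851 windows of the table, 10.2% held the antioxidant core, 21.4% the metal core, 4.46% the AP-1 site and 1.26% at least 3 metal cores. A match describes the letters of the window and is not a measured binding site.

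The libraries held 21390839 to 28234404 counts, and the 10 members together took 0.113% to 0.128% of them. Levels are given as CPM (counts of a gene per 1000000 counts of its library), with library sizes scaled by the trimmed mean of M-values in edgeR. Osteoblast genes were high in every library, with Col1a1 at 35520 to 45262 CPM and Ibsp at 11995 to 12708 CPM, and the osteocyte genes Sost and Fgf23 stood at 0.351 to 1.57 and 0.914 to 10.2 CPM. The 14 osteoblast and osteocyte markers summed to 111458 to 118755 CPM with Control, 112428 to 117882 CPM with BGP and 104550 to 110698 CPM with NaHPO4. Of 6 adipocyte markers only Fabp4 passed the filter and the list summed to 12.4 to 16.2, 13.1 to 14.6 and 9.97 to 14.3 CPM, with Adipoq at 0 to 4 counts and Plin1 at 0 to 2 counts. Of 5 muscle markers 1 passed and Myod1 had 0 counts in every library (sums of 9.29 to 10.1, 7.80 to 8.89 and 7.69 to 7.86 CPM). Of 6 macrophage and osteoclast markers 3 passed, Ptprc had 0 to 1 counts and Adgre1 0 to 4, and the sum of 290 to 297, 276 to 287 and 250 to 263 CPM was mostly Ctsk. Of 5 chondrocyte markers 3 passed and Acan had 0 to 1 counts, while Col2a1 brought the sum to 248 to 306 CPM with Control, 339 to 446 CPM with BGP and 185 to 264 CPM with NaHPO4. In bulk RNA, fewer cells of a type and less RNA per cell cannot be told apart.

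Levels of different genes are compared here per transcript length, as TPM, the counts per base of the union of a gene's annotated exons scaled to the same sum in every library. The metallothioneins were the highest members by far, with Mt2 at 2235 ± 75.0 TPM and Mt1 at 1463 ± 69.2 TPM in Control cells (SD, n = 3). By mean TPM over all 9 libraries they stood at rank 33 and 61 of all genes, and at rank 54 and 91 with the mean length of the annotated transcripts. Next came Nfe2l2 at 97.8 ± 1.97 TPM and Hmox1 at 94.0 ± 4.49 TPM, whose Control libraries overlapped, and then Txnrd1 at 71.5 ± 2.05 TPM. Gclc (26.3 ± 2.93 TPM) overlapped with Srxn1 (23.7 ± 1.46 TPM), and Gclm (20.8 ± 0.641 TPM) overlapped with Nqo1 (18.4 ± 2.35 TPM). Slc7a11 was close to absent at 0.0444 ± 0.0166 TPM. The order below the metallothioneins depended on the length used: with the mean length of the annotated transcripts Nfe2l2 was at 103.7 TPM, Txnrd1 at 99.1 TPM and Hmox1 at 66.3 TPM, and Gclm at 26.2 TPM passed Gclc at 22.9 TPM.

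**Figure D1:**
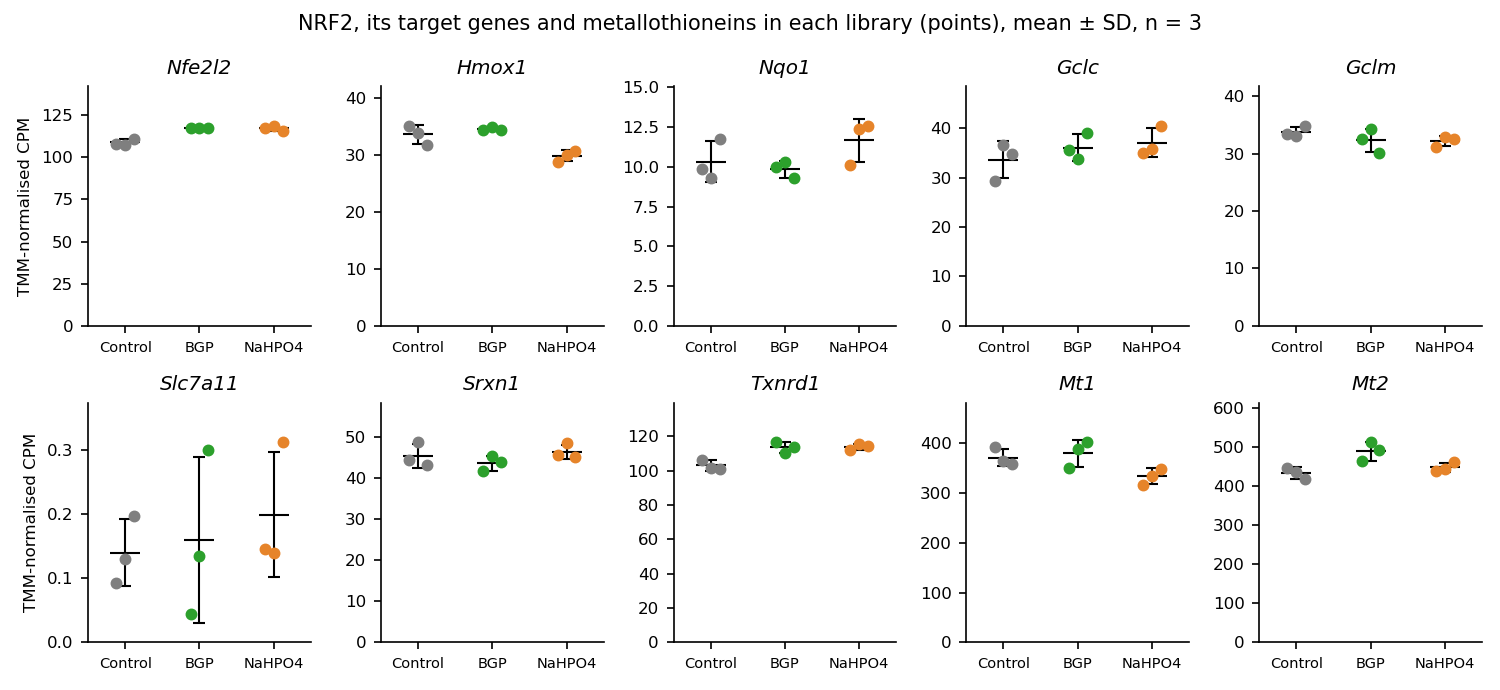
Level of the 10 members in each library (points), as CPM scaled by the trimmed mean of M-values on axes that start at 0, with the mean and SD of the 3 libraries of Control (grey), BGP (green) and NaHPO4 (orange). Both treated groups lie above Control for Txnrd1 and Nfe2l2, BGP lies above both other groups for Mt2, NaHPO4 lies below both for Hmox1 and Mt1, and Slc7a11 has 1 to 8 counts a library.

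All changes of the members were small, and no member was a differentially expressed gene (DEG) by the study's definition, which asks for an FDR (false discovery rate) below 0.05 together with a log2 fold change beyond 0.5 in either direction, in any comparison. BGP raised Mt2 and Txnrd1, NaHPO4 raised Txnrd1 and lowered Mt1, and BGP left Hmox1, Mt1 and Mt2 higher than NaHPO4 did. The test was edgeR's quasi-likelihood test over 13679 genes with Benjamini-Hochberg adjustment. With BGP against Control, 2 of 9 members were higher, where 1.86% of all tested genes were, and 0 were lower, where 0.665% were. With NaHPO4 against Control, 1 member was higher (3.43% of all genes) and 1 was lower (3.95%). With BGP against NaHPO4, 3 members were higher (3.33% of all genes) and 0 lower (2.05%). At an unadjusted p under 0.05 there were 3, 4 and 4 members, against 13.4%, 19.9% and 16.9% of all genes. Member DEGs were 0 in the 3 comparisons, also with DESeq2 and limma, where 0.556%, 0.716% and 0.585% of all genes were DEGs by edgeR. The median log2 fold change of the 9 members was 0.041, 0.049 and 0.0021, and that of all tested genes -0.0043, 0.000097 and -0.0018. The libraries of the compared groups did not overlap for 3 members with BGP against Control (18.5% of all genes), for 5 with NaHPO4 against Control (23.2%) and for 3 with BGP against NaHPO4 (21.2%). With 3 libraries against 3 an exact permutation test of a single gene cannot go below p = 0.1, so the calls rest on the variance that edgeR shares across genes.

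**Figure D2:**
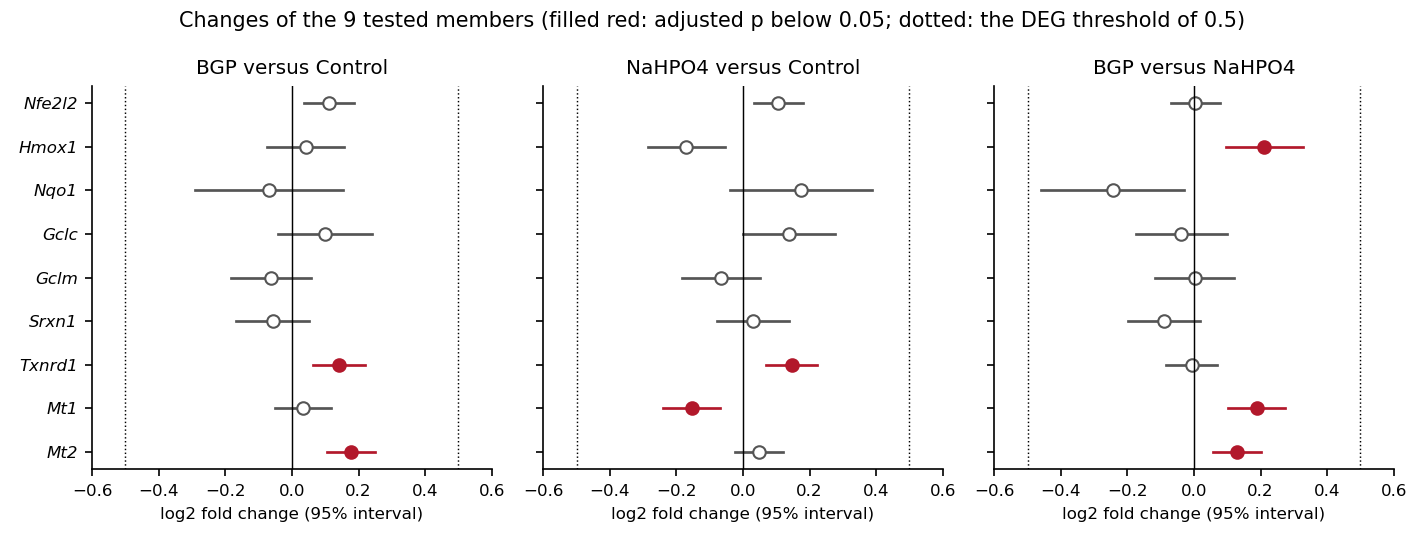
Log2 fold change of the 9 tested members in the 3 comparisons, with 95% intervals from edgeR's quasi-likelihood fit, red where the adjusted p was below 0.05, and dotted lines at the DEG threshold of 0.5. Every interval lies inside the dotted lines, and the estimates run from -0.24 (Nqo1, BGP versus NaHPO4) to 0.21 (Hmox1, BGP versus NaHPO4).

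Nfe2l2 (ENSMUSG00000015839; GRCm39 chromosome 2, 75504739 to 75534985, minus strand, 5 exons) encodes NRF2, whose activity is set mainly by protein stability. Its level was 108, 107 and 111 CPM in the Control libraries, 117 CPM in each of the 3 BGP libraries and 117, 119 and 115 CPM in the NaHPO4 libraries. All 6 treated libraries were thus above all 3 Control libraries, and the BGP and NaHPO4 libraries overlapped. The log2 fold change was 0.11 with BGP (SE 0.037, adjusted p = 0.117) and 0.11 with NaHPO4 (SE 0.036, adjusted p = 0.0681) by edgeR's quasi-likelihood test, so neither passed. With NaHPO4 it did pass with limma (adjusted p = 0.0443) and with library sizes taken as total counts (adjusted p = 0.0174). BGP and NaHPO4 differed by 0.0040 on the log2 scale, with a 95% interval of -0.069 to 0.077. An exon of the opposite-strand gene E030042O20Rik overlaps 278 bases of Nfe2l2, and that gene had 17 to 32 counts.

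The partners and regulators of NRF2 moved little. Of 13 tested, 0 passed with BGP against Control, 1 was higher and 1 lower with NaHPO4 against Control, and 1 was higher when BGP was compared with NaHPO4. Their median log2 fold change was 0.019, 0.026 and 0.022. The shares of all tested genes to set beside such counts, here and in the lists below, are those given with the member calls. Keap1, the sensor that holds NRF2, was at 50.8, 48.6 and 50.7 CPM on average in Control, BGP and NaHPO4, with a log2 fold change of -0.065 with BGP (adjusted p = 0.598) and -0.0025 with NaHPO4 (adjusted p = 0.983) by edgeR's quasi-likelihood test. Bach1, the repressor that competes for the same elements, was at 36.4, 37.6 and 37.0 CPM (adjusted p = 0.782 and 0.858). Cul3, the scaffold of the ligase that marks NRF2 for degradation, rose with NaHPO4 by 0.15 on the log2 scale, from 99.4 to 101 CPM in Control to 111 to 113 CPM (adjusted p = 0.0104), with BGP at 103 to 112 CPM (adjusted p = 0.232). Nfe2l1, which encodes the related factor NRF1, fell by 0.11 with NaHPO4 (adjusted p = 0.0286) and stood 0.13 above its NaHPO4 level with BGP (adjusted p = 0.0109). The first of these calls was lost with total counts (adjusted p = 0.0981), with limma (0.0576) and without Control 1, Control 3, NaHPO4 2 or NaHPO4 3 (adjusted p of 0.0559 to 0.137), and the second with total counts (0.0533) and without BGP 3 or NaHPO4 3 (0.0747 and 0.0683).

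Txnrd1 (ENSMUSG00000020250; GRCm39 chromosome 10, 82669785 to 82733546, plus strand, 14 exons) encodes the cytosolic thioredoxin reductase, a selenoprotein that keeps thioredoxin reduced. It stood at 107, 102 and 101 CPM in Control, at 117, 110 and 114 CPM with BGP and at 112, 116 and 115 CPM with NaHPO4. Every treated library was above every Control library, while the libraries of the phosphates overlapped. Txnrd1 rose by 10.2% with BGP (log2 fold change 0.14, SE 0.038, adjusted p = 0.0382) and by 10.7% with NaHPO4 (0.15, SE 0.038, adjusted p = 0.0109, edgeR's quasi-likelihood test). BGP against NaHPO4 gave a difference of -0.0060 with a 95% interval of -0.083 to 0.071. The call with BGP was marginal: it was lost with limma (adjusted p = 0.0511) and without Control 2 (0.132), Control 3 (0.156), BGP 1 (0.210), BGP 3 (0.110) or NaHPO4 2 (0.0528). The call with NaHPO4 was lost without Control 3 (0.0639) or NaHPO4 2 (0.0598). The macrophage and muscle marker sums given above were lower with both phosphates than in Control without overlap, and their part in these values was not tested.

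Srxn1 (ENSMUSG00000032802; GRCm39 chromosome 2, 151947436 to 151957687, plus strand) encodes sulfiredoxin, which repairs over-oxidised peroxiredoxins. It had 44.4, 48.6 and 43.1 CPM in Control, 41.7, 45.2 and 43.8 CPM with BGP and 45.5, 48.4 and 45.1 CPM with NaHPO4. The 3 groups overlapped. The log2 fold change was -0.058 with BGP (95% interval -0.17 to 0.053), 0.031 with NaHPO4 (-0.077 to 0.14) and -0.089 between BGP and NaHPO4 (-0.20 to 0.019), with adjusted p of 0.710, 0.815 and 0.424 by edgeR's quasi-likelihood test.

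Hmox1 (ENSMUSG00000005413; GRCm39 chromosome 8, 75820241 to 75827217, plus strand, 5 exons) encodes heme oxygenase 1, which breaks heme down to biliverdin, iron and carbon monoxide. It had 35.2, 34.0 and 31.9 CPM in Control, 34.4, 35.0 and 34.4 CPM with BGP and 28.8, 30.1 and 30.7 CPM with NaHPO4. The NaHPO4 libraries were the lowest 3 of the 9, and the BGP libraries lay within the range of Control. Hmox1 was 15.8% higher with BGP than with NaHPO4 (log2 fold change 0.21, SE 0.057, adjusted p = 0.0198, edgeR's quasi-likelihood test). Against Control the log2 fold change was -0.17 with NaHPO4 (SE 0.057, adjusted p = 0.0638) and 0.041 with BGP (SE 0.057, adjusted p = 0.828), and neither passed. The difference between the phosphates stayed near 0.2 in every alternative (0.18 to 0.23) but did not pass with total counts (adjusted p = 0.0518) or without BGP 1 (0.0579), BGP 2 (0.0748), BGP 3 (0.0547), NaHPO4 1 (0.0783) or NaHPO4 2 (0.0557). The fall with NaHPO4 passed without Control 3 (adjusted p = 0.0418) and with edgeR's likelihood ratio test (0.0478). With NaHPO4 the summed osteoblast and osteocyte markers and the summed macrophage and osteoclast markers given above were also below those of Control and BGP without overlap, and the chondrocyte sum was below that of BGP. Their part in these values was not tested.

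Nqo1 (ENSMUSG00000003849; GRCm39 chromosome 8, 108113835 to 108129934, minus strand, 6 exons) encodes the quinone reductase that is the classic reporter of NRF2 activity. It had 9.86, 9.31 and 11.8 CPM in Control, 9.97, 10.3 and 9.28 CPM with BGP and 10.1, 12.4 and 12.6 CPM with NaHPO4. The groups overlapped, and within Control and within NaHPO4 1 library stood apart from the other 2. Nqo1 was the least precise of the 9 members, with 211 to 352 counts a library and a biological coefficient of variation of 6.57% against 3.64% over all genes. Its log2 fold change was -0.070 with BGP (95% interval -0.29 to 0.15, adjusted p = 0.851), 0.17 with NaHPO4 (-0.038 to 0.39, adjusted p = 0.373) and -0.24 between BGP and NaHPO4 (-0.46 to -0.030, adjusted p = 0.216, edgeR's quasi-likelihood test).

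Gclc (ENSMUSG00000032350; GRCm39 chromosome 9, 77661797 to 77701770, plus strand) and Gclm (ENSMUSG00000028124; GRCm39 chromosome 3, 122039126 to 122065061, plus strand) encode the catalytic and the modifier subunit of glutamate-cysteine ligase, the limiting enzyme of glutathione synthesis. Gclc had 29.4, 36.5 and 34.8 CPM in Control, 35.5, 33.6 and 38.9 CPM with BGP and 34.9, 35.8 and 40.4 CPM with NaHPO4. Gclm had 33.3, 33.0 and 34.8 CPM in Control, 32.5, 34.2 and 30.1 CPM with BGP and 31.2, 32.9 and 32.5 CPM with NaHPO4. The groups overlapped, apart from Gclm with NaHPO4, which stayed just under Control. No comparison of these genes passed edgeR's quasi-likelihood test. For Gclc the log2 fold change was 0.099 with BGP (95% interval -0.042 to 0.24, adjusted p = 0.585) and 0.14 with NaHPO4 (-0.0013 to 0.28, adjusted p = 0.255). For Gclm it was -0.064 with BGP (-0.18 to 0.056, adjusted p = 0.706) and -0.066 with NaHPO4 (-0.18 to 0.052, adjusted p = 0.594). Between BGP and NaHPO4 the differences were -0.038 for Gclc (-0.18 to 0.10) and 0.0021 for Gclm (-0.12 to 0.12). Gclm shares exon bases with Gm17494 on the opposite strand and with Gm6061, which had 0 to 8 and 2 to 7 counts, and 4.40% of its 50-base windows occur in other transcripts.

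Slc7a11 (ENSMUSG00000027737; GRCm39 chromosome 3, 49846975 to 50398070, minus strand) encodes the light chain of the cystine importer system xc-, which supplies cysteine for glutathione. It had 2, 3 and 5 counts in Control, 1, 3 and 7 with BGP and 4, 4 and 8 with NaHPO4, and did not pass the filter. Per library that was 0.0451 to 0.312 CPM, too few to show a difference between the groups at this depth. The heavy chain gene Slc3a2, which serves other amino acid transporters too, had 196 to 199 CPM in Control, 199 to 206 CPM with BGP and 180 to 194 CPM with NaHPO4. It was 0.12 higher on the log2 scale with BGP than with NaHPO4 (adjusted p = 0.0287, edgeR's quasi-likelihood test), a call that was lost with total counts (adjusted p = 0.119), with limma (0.0667) and without BGP 1 (0.0531), BGP 2 (0.118), BGP 3 (0.0784), NaHPO4 1 (0.122) or NaHPO4 2 (0.129). It was the only one of 18 tested genes of glutathione metabolism to pass in any of the 3 comparisons. Gsr, glutathione reductase, had 68.4, 68.6 and 72.4 CPM on average (adjusted p = 0.977 with BGP and 0.341 with NaHPO4).

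Mt1 (ENSMUSG00000031765; GRCm39 chromosome 8, 94905710 to 94906955, plus strand) and Mt2 (ENSMUSG00000031762; GRCm39 chromosome 8, 94898819 to 94900207, plus strand) are neighbours on the same strand, 5503 bases apart. Mt2 had 447, 434 and 417 CPM in Control, 463, 511 and 492 CPM with BGP and 438, 443 and 461 CPM with NaHPO4. Mt1 had 391, 364 and 358 CPM in Control, 349, 389 and 401 CPM with BGP and 317, 335 and 349 CPM with NaHPO4. The genes thus parted: every BGP library was above every other library for Mt2, and every NaHPO4 library was below every other library for Mt1 (by under 1 CPM between the nearest NaHPO4 and BGP libraries), while Mt1 with BGP overlapped with Control and so did Mt2 with NaHPO4.

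Mt2 rose by 13.0% with BGP against Control (log2 fold change 0.18, SE 0.036, adjusted p = 0.0020, edgeR's quasi-likelihood test). This was the one member call that held in all 18 alternatives, with adjusted p from 1.38e-05 to 0.0495. With NaHPO4 its log2 fold change was 0.049 (95% interval -0.024 to 0.12, adjusted p = 0.496). Mt1 fell by 10.1% with NaHPO4 (log2 fold change -0.15, SE 0.042, adjusted p = 0.0151) and had a log2 fold change of 0.034 with BGP (-0.051 to 0.12, adjusted p = 0.798). The fall of Mt1 was not called by DESeq2 (adjusted p = 0.167) or without Control 1 (0.165) or NaHPO4 1 (0.111). Markers moved in these comparisons too: with BGP Col2a1 and 4 of 14 osteoblast and osteocyte markers were higher and 0 lower, and with NaHPO4 Col2a1, Ctsk and 5 of the 14 were lower and 2 higher. Their part in the values of Mt1 and Mt2 was not tested.

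Both metallothioneins were higher with BGP than with NaHPO4 at the same added dose. The difference was 13.9% for Mt1 (log2 fold change 0.19, SE 0.042, adjusted p = 0.0033) and 9.27% for Mt2 (0.13, SE 0.036, adjusted p = 0.0239) by edgeR's quasi-likelihood test, and no library of one group reached into the other. For Mt1 the call was lost with DESeq2 (adjusted p = 0.0714) and without BGP 3 (0.0537). For Mt2 it was lost with limma (0.0517), with total counts (0.101) and without BGP 2 (0.193), BGP 3 (0.0825), NaHPO4 1 (0.0838) or NaHPO4 2 (0.108). In the same comparison Col2a1 and Ctsk were higher with BGP. Of 14 osteoblast and osteocyte markers, 7 (Sp7, Col1a1, Col1a2, Bglap, Dmp1, Fgf23 and Sost) were higher and 1 (Spp1) was lower (median log2 fold change 0.15). The chondrocyte, macrophage and osteoblast sums given above did not overlap between BGP and NaHPO4. Their part in these values was not tested.

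The ratio of Mt2 to Mt1 counts within a library does not depend on how libraries are scaled. It was 1.14, 1.19 and 1.16 in Control, 1.33, 1.31 and 1.23 with BGP and 1.38, 1.32 and 1.32 with NaHPO4. All 6 treated libraries were above all 3 Control libraries, and BGP and NaHPO4 overlapped. The means were 1.17 ± 0.0267, 1.29 ± 0.0538 and 1.34 ± 0.0354 (SD, n = 3), and the two-sided exact permutation p was 0.1 for BGP against Control, 0.1 for NaHPO4 against Control, the smallest the design allows, and 0.3 for BGP against NaHPO4. With each library left out in turn the ratio remained higher than Control by 0.105 to 0.154 with BGP and by 0.156 to 0.191 with NaHPO4. The ratio was chosen after the values of both genes had been seen. Of the 50-base windows of Mt2, 14.3% are shared with the opposite-strand gene Gm45774, which overlaps 783 of its exon bases and had 2, 16 and 10 counts in Control, 15, 16 and 16 with BGP and 26, 31 and 22 with NaHPO4, against 9552 to 12628 for Mt2. The strand setting of the counting is not given in the sources used here, so reads of this pair cannot be told apart with certainty.

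**Figure D3:**
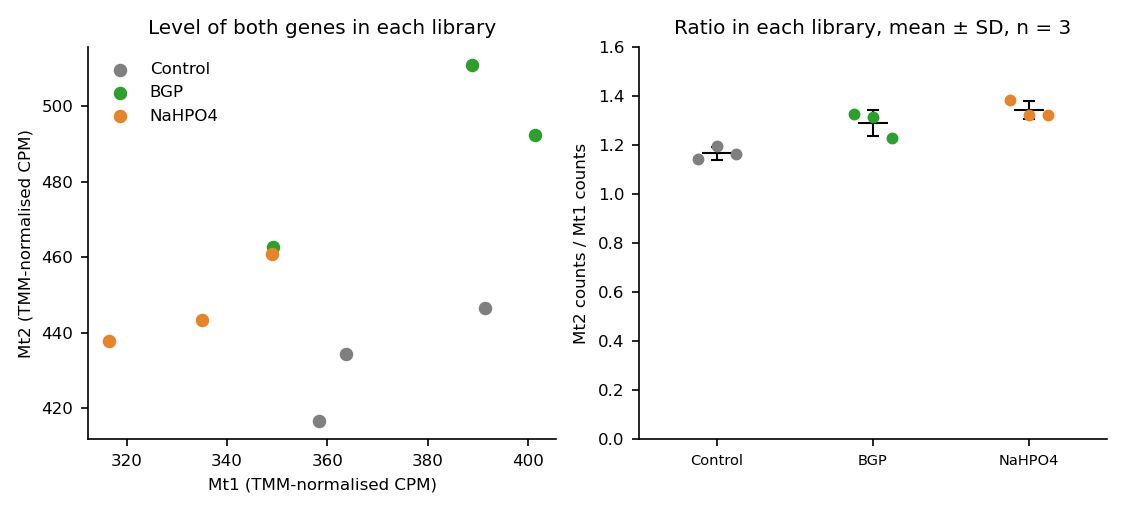
Left, Mt2 against Mt1 in each library, both as CPM scaled by the trimmed mean of M-values, on axes that do not start at 0; right, the ratio of Mt2 counts to Mt1 counts in each library (points) with mean and SD of the 3 libraries of each group. The Control libraries lie at 1.14 to 1.19 and the treated libraries at 1.23 to 1.38.

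Of the other metallothionein genes, Mt3 had 0 counts in all 9 libraries and Mt4 0 to 1. Mtf1, the zinc sensor that drives Mt1 and Mt2, had 24.2, 24.1 and 23.4 CPM on average in Control, BGP and NaHPO4, with adjusted p of 0.980 and 0.761 against Control by edgeR's quasi-likelihood test. Slc30a1, a zinc exporter and a target of MTF1, had 10.1, 10.7 and 9.92 CPM (adjusted p = 0.818 and 0.926). Among 19 tested genes of zinc and copper transport, 1 was higher with BGP, 2 with NaHPO4 and 1 with BGP than with NaHPO4, and 0 were lower, and the median log2 fold change was 0.063, 0.069 and 0.0035. The importer gene Slc39a14 (ZIP14, which carries zinc, iron and manganese) had 110, 105 and 114 CPM in Control, 162, 159 and 149 CPM with BGP and 137, 131 and 142 CPM with NaHPO4. The 3 groups did not overlap. It rose by 0.51 on the log2 scale with BGP (SE 0.041, adjusted p = 8.47e-12), which makes it a DEG, by 0.32 with NaHPO4 (SE 0.041, adjusted p = 5.61e-07), and its BGP level exceeded its NaHPO4 level by 0.20 (SE 0.040, adjusted p = 0.0010). With BGP the value ran from 0.49 to 0.55 over the alternatives, so the DEG call was at the threshold. Slc39a10, another zinc importer, rose by 0.23 with NaHPO4 (adjusted p = 0.0065), a call lost without NaHPO4 1 (adjusted p = 0.0532), and had a log2 fold change of 0.18 with BGP (adjusted p = 0.102).

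Dexamethasone was in the medium and metallothionein genes respond to glucocorticoids, so 12 tested glucocorticoid-responsive genes were read beside them. With BGP 2 were higher and 2 lower, with NaHPO4 0 were higher and 4 lower, and with BGP against NaHPO4 2 were higher and 1 lower. Errfi1, a feedback inhibitor of the EGF receptor, was at 186 to 191 CPM in Control, rose to 205 to 221 CPM with BGP (log2 fold change 0.17, adjusted p = 0.0025) and fell to 158 to 160 CPM with NaHPO4 (-0.25, adjusted p = 3.53e-06, edgeR's quasi-likelihood test). Dusp1, a MAP kinase phosphatase, fell by 0.32 with NaHPO4 (adjusted p = 0.0086, lost without Control 1 at 0.0772) and had -0.0021 with BGP (adjusted p = 0.993), and it was 0.32 higher with BGP than with NaHPO4 (adjusted p = 0.0118, lost without BGP 3 at 0.0510 and without NaHPO4 3 at 0.0537). Sgk1, a kinase induced by steroids, rose by 0.13 with BGP (adjusted p = 0.0246) but not without any one of Control 2, Control 3, BGP 1, BGP 2 or BGP 3 (adjusted p of 0.0531 to 0.121). Cebpd went the other way, with a fall of 0.35 with BGP (adjusted p = 0.000159). Over the alternatives 1 to 2 genes of the list were higher and 1 to 2 lower with BGP, and 2 to 4 were lower with NaHPO4, with 2 without Control 1, NaHPO4 1 or NaHPO4 2. With NaHPO4 the genes called lower were Errfi1, Dusp1, Tsc22d3 and Ddit4, the last pair named because they complete the count. The call of Tsc22d3 was lost with limma (adjusted p = 0.0682) and with total counts (0.119). It was also lost without Control 1, Control 2 or any 1 of the NaHPO4 libraries (0.0665 to 0.112). That of Ddit4 was lost without Control 3 (0.112), NaHPO4 1 (0.0692) or NaHPO4 2 (0.0570). Ddit4 was also called lower with BGP, beside Cebpd, and lost without Control 2, Control 3, BGP 1, BGP 3 or NaHPO4 2 (0.0624 to 0.252). With NaHPO4 no alternative called a gene of the list higher, and 3 of 12 genes had a log2 fold change above 0. With BGP 8 of 12 did. The median log2 fold change was 0.019 with BGP, -0.091 with NaHPO4 and 0.091 between BGP and NaHPO4. The summed level was 3344 to 3387 CPM in Control and 3361 to 3481 CPM with BGP, which overlapped, and 3193 to 3237 CPM with NaHPO4, below both. The other listed genes (Fkbp5, Zbtb16, Per1, Klf9, Nr3c1, Pdk4 and Angptl4, not all of them tested) were called in none of the 3 comparisons. By their functions Errfi1 and Dusp1 also belong to EGF receptor and MAP kinase signalling, and the paper reports MAPK signalling in the response of Fgf23 to BGP. Whether the calls of this list reflect glucocorticoids, and their part in the values of Mt1 and Mt2, was not tested.

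Further NRF2 targets outside the 10 members showed few calls. Of 23 tested, 0 passed with BGP against Control, and 2 were higher and 0 lower with NaHPO4 against Control, at a median log2 fold change of -0.0087 and -0.0043. At BGP against NaHPO4, 0 were higher and 2 lower, with a median of -0.034. Txn1, thioredoxin itself and the substrate of Txnrd1, had 157, 162 and 162 CPM in Control, 156, 161 and 164 CPM with BGP and 165, 176 and 187 CPM with NaHPO4. It rose by 0.13 on the log2 scale with NaHPO4 (adjusted p = 0.0230, edgeR's quasi-likelihood test), which was lost without Control 1 (0.130), NaHPO4 2 (0.0720) or NaHPO4 3 (0.194), and it was lower by 0.14 with BGP than with NaHPO4 (adjusted p = 0.0272), which was lost without BGP 1 (0.156), BGP 2 (0.0843), NaHPO4 2 (0.0873) or NaHPO4 3 (0.238). G6pdx, the first enzyme of the pentose phosphate pathway and a source of NADPH, rose by 0.16 with NaHPO4 (adjusted p = 0.0293), which was lost with DESeq2 (0.0538) and without Control 1 (0.197), Control 3 (0.0807), NaHPO4 2 (0.0552) or NaHPO4 3 (0.160). Fth1, the ferritin heavy chain, was lower with BGP than with NaHPO4, at 1335 to 1462 against 1483 to 1664 CPM (log2 fold change -0.15, adjusted p = 0.0107), which was lost with DESeq2 (0.110) and without BGP 3 (0.128) or NaHPO4 3 (0.137).

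**Figure D4:**
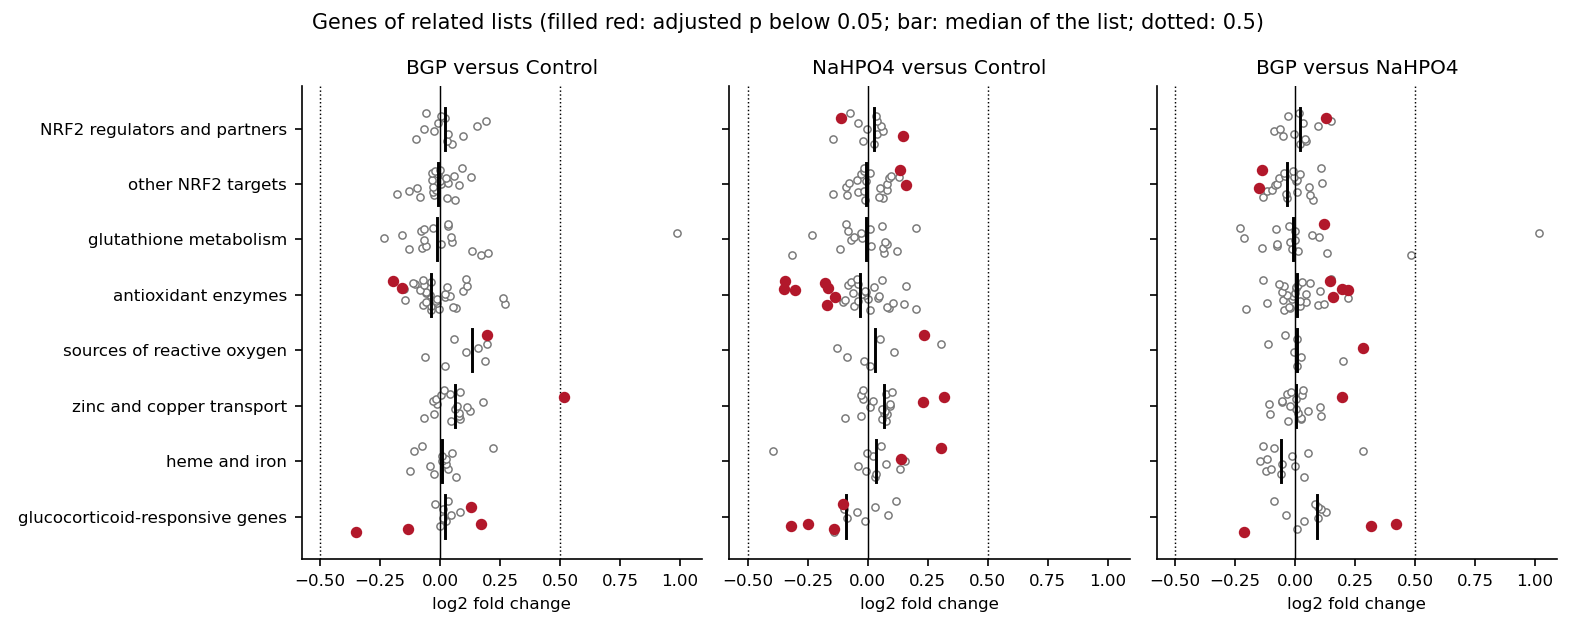
Log2 fold change of each tested gene of 8 related lists in the 3 comparisons, filled red where edgeR's adjusted p was below 0.05, with a bar at the median of the list and dotted lines at 0.5. The red points of the list labelled antioxidant enzymes lie left of 0 against Control, at 2 genes with BGP and 7 with NaHPO4. That list also holds genes of other function, such as Txnip and Sesn1. Slc39a14 is the red point of zinc and copper transport at 0.51 with BGP.

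The list of antioxidant enzymes had 32 tested genes and also held genes of other function, among them Txnip, Sesn1 and Selenop. With BGP 0 were higher and 2 lower (Txnip and Sesn1), where 0.665% of all tested genes were lower. With NaHPO4 0 were higher and 7 lower, where 3.95% of all genes were lower. With BGP against NaHPO4 4 were higher and 0 lower, where 3.33% of all genes were higher. The median of the list was -0.037, -0.032 and 0.0077, and 11, 12 and 19 of the 32 genes had a log2 fold change above 0. Summed over the list, the level was 3246 to 3279 CPM in Control, 3102 to 3171 CPM with BGP and 2978 to 3082 CPM with NaHPO4, with no overlap between the groups. This sum contains Txnip, whose own fall is given next, and it was not taken without Txnip. Txnip, the inhibitor of thioredoxin, had 407, 415 and 438 CPM in Control, 353, 380 and 365 CPM with BGP and 332, 328 and 334 CPM with NaHPO4. The 3 groups did not overlap, and Txnip fell by 0.20 with BGP (SE 0.034, adjusted p = 0.000266) and by 0.34 with NaHPO4 (SE 0.034, adjusted p = 3.09e-09) by edgeR's quasi-likelihood test. Its difference of 0.15 between BGP and NaHPO4 passed (adjusted p = 0.0060) except without BGP 2 (0.0719). Selenow, a small selenoprotein, fell by 0.35 with NaHPO4 (adjusted p = 8.57e-07), from 89.2 to 93.6 CPM in Control to 68.0 to 76.2 CPM, with BGP in between at 79.1 to 87.1 CPM (-0.15, adjusted p = 0.0701). It was 0.20 higher with BGP than with NaHPO4 (adjusted p = 0.0055, lost without BGP 3 at 0.0844). Selenop, the selenium carrier, fell by 0.30 with NaHPO4 (adjusted p = 2.77e-06), from 186 to 199 CPM to 150 to 168 CPM, and its level with BGP exceeded that with NaHPO4 by 0.22 (adjusted p = 0.000579). Sesn1, a stress-induced inhibitor of mTORC1, fell by 0.16 with BGP (adjusted p = 0.0048, lost without BGP 2 at 0.0557) and by 0.16 with NaHPO4 (adjusted p = 0.0013). The other genes of the list lower with NaHPO4 were Sod3, Gpx1 and Msrb3, named here because they complete the count. The call of Sod3 was lost without Control 1 (adjusted p = 0.159), NaHPO4 1 (0.158) or NaHPO4 3 (0.0610), and that of Gpx1 without Control 1 (0.0997). Over the 18 alternatives 5 to 7 genes of the list were lower with NaHPO4, and 0 to 2 were higher: in 8 alternatives at least 1 was, among them the likelihood ratio test, limma, total counts, the replicate block and the fits without Control 2, Control 3 or NaHPO4 2.

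Among 8 tested genes for sources of reactive oxygen, 1 was higher and 0 lower in each of the 3 comparisons. The median log2 fold change was 0.13 with BGP, 0.032 with NaHPO4 and 0.0078 between BGP and NaHPO4, with 7, 5 and 5 of the 8 genes above 0. The summed level was 836 to 894 CPM in Control, below the 937 to 961 CPM with BGP and the 926 to 965 CPM with NaHPO4. This sum contains Xdh, whose own rise is given next, and it was not taken without Xdh. Xdh, xanthine dehydrogenase, had 402, 393 and 427 CPM in Control, 466, 466 and 465 CPM with BGP and 484, 457 and 498 CPM with NaHPO4. All treated libraries were above Control, with log2 fold changes of 0.19 with BGP (SE 0.035, adjusted p = 0.000480) and 0.24 with NaHPO4 (SE 0.035, adjusted p = 8.85e-06) by edgeR's quasi-likelihood test. Between BGP and NaHPO4 Xdh differed by -0.042 (SE 0.035, adjusted p = 0.612). Ncf1, a subunit of the NADPH oxidase, was higher with BGP (69.4 to 77.5 CPM) than with NaHPO4 (58.8 to 65.3 CPM), with a log2 fold change of 0.28 (SE 0.053, adjusted p = 0.000443). Among 13 genes of heme and iron handling, 0 passed with BGP against Control and 0 with BGP against NaHPO4. With NaHPO4 2 were higher: Tfrc, the transferrin receptor, rose by 0.31 (adjusted p = 0.0195) and Ireb2, an iron-responsive regulator, by 0.14 (adjusted p = 0.0320). The call of Tfrc was lost without Control 1 (0.0823), NaHPO4 1 (0.0526) or NaHPO4 2 (0.112), and that of Ireb2 with DESeq2 (0.0516) and without Control 1 (0.111), Control 2 (0.117), NaHPO4 1 (0.231) or NaHPO4 2 (0.0538).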

How the data were processed

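Differentiated MC3T3-E1 cells were measured by RNA sequencing in 9 libraries, 3 each of Control, BGP and NaHPO4. Stranded polyA reads were mapped by the authors in the AIR platform (GRCm39, Ensembl release 104). They deposited raw counts per gene and a second table, a signal made by multiplying the counts of each library by 1 TMM factor. FastQC and edgeR are named in the submitters' processing notes. The aligner, the counter and its strand setting are not given in the sources used here. Groups and replicate numbers came from the labels. The deposited counts were analysed with edgeR 4.0.16 in R 4.3.3: genes were kept by filterByExpr with a count minimum of 10, library sizes were scaled by TMM, and the quasi-likelihood test was run on all 9 libraries with 1 coefficient a group, with Benjamini-Hochberg adjustment over 13679 genes. SE is the log2 fold change divided by the root of F, and intervals are 95%. A DEG has FDR below 0.05 and an absolute log2 fold change above 0.5. Alternatives were DESeq2 1.42.0, limma 3.58.1 on log2(value + 1) of the deposited TMM signal, edgeR's likelihood ratio test, other size factors, filters, thresholds and samples, and a replicate block. Lengths and positions are from GENCODE M39, in which 13631 of the tested genes were found. On simulated data for BGP versus Control with 200 changed genes among 13612 tested, 98.5% were recovered (97 of 100 at 1.5-fold), with 6 false calls. The changed genes were drawn from those with higher mean counts, and every gene was simulated with the same dispersion. The rate therefore does not cover low-count or more variable genes. Recovery below 1.5-fold, where the estimates of all tested members lie, was not tested. Replicate pairs differed by 2.61 to 4.84 times the sampling variance, so no pair agreed within sampling noise.

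The members and gene lists were chosen with earlier results of these data known. Named genes are the 10 members, at most 4 genes a list past FDR 0.05 in any comparison by smallest p, and Keap1, Bach1, Mtf1, Slc30a1, Mt3, Slc3a2 and Gsr; marker genes and the genes that complete a count were added after their values were seen.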

Additional observations from a re-analysis of the deposited data

How the results depend on the processing

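Of the log2 fold changes of the members over the alternatives, 441 kept their direction and side of the threshold, 25 lost a call, 4 gained one and 16 changed sign, all of the last in values that passed no test. Signs changed in BGP versus NaHPO4 with limma for Gclm (-0.015) and Nfe2l2 (-0.011) and with total counts for Gclm (-0.025) and Nfe2l2 (-0.023). With 1 library left out in turn, values crossed 0 for Gclm (-0.039 to 0.050), Nfe2l2 (-0.0062 to 0.013), Gclc (-0.098 to 0.028) and Txnrd1 (-0.024 to 0.017) in BGP versus NaHPO4, for Nqo1 (-0.14 to 0.041) and Mt1 (-0.0079 to 0.091) in BGP versus Control and for Srxn1 (-0.0054 to 0.084) in NaHPO4 versus Control.

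The number of members past FDR 0.05 was 2 with BGP against Control, and 1 with limma and at an FDR of 0.01, 1 to 2 with a library left out. With NaHPO4 against Control it was 2, and 3 with edgeR's likelihood ratio test (Hmox1 added) and with limma and total counts (Nfe2l2 added), 1 with DESeq2, 0 at an FDR of 0.01 and 1 to 2 with a library left out. With BGP against NaHPO4 it was 3, and 2 with DESeq2 (Hmox1 and Mt2) and with limma (Hmox1 and Mt1). It was 1 with total counts and at an FDR of 0.01, and 0 to 3 with a library left out, 0 without BGP 3. The libraries that decide each call are named beside it in the report, and the cause was not tested. Member DEGs were 0 in every alternative run. Total counts in place of TMM changed the split of all called genes from 469 higher and 540 lower to 777 and 413 with NaHPO4 against Control, and from 456 and 280 to 322 and 494 with BGP against NaHPO4.

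The replicate numbers are no known pairing. Same-numbered libraries of different groups had deviations correlated at 0.0127 on average (-0.0092 to 0.043), against -0.0063 for different numbers, and 0 of 9 pairs were over 0.1. Yet 7 of 9 libraries correlated best with their own number, and the same-numbered pairs of Control and NaHPO4 had the highest values (0.030, 0.043 and 0.041). These values do not settle whether the numbers pair the libraries. With the replicate block 2, 2 and 3 members passed in the 3 comparisons. Depth limits Slc7a11, with 1 to 8 counts a library.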
